A study of Homo sapiens with 6 samples.

Results

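Collagens and the proteins that modify, fold, cross-link or bind them were examined in HCT116 cells carrying a hairpin against NFX1-91. Members were the genes read by a probe set annotated to exactly 1 gene symbol that names a collagen alpha chain (COL, a number, A, a number), together with 13 named enzymes and collagen-binding proteins. That gave 45 genes of 11963 measured, 32 of them collagen chains, and 96 probe sets of 22215. Each gene was read from the probe set with the highest mean over all 6 arrays, and the 3 probe sets of COL13A1 are all given. HCT116 is an established human colon cancer line, and both groups were stable derivatives made with the lentiviral vector FUGW: 3 arrays of cells with an shRNA against NFX1-91, a splice form of the zinc finger protein NFX1, and 3 of cells with a control shRNA against β-galactosidase. Whether the arrays of a group stand for separate cultures or infections is not stated, so their spread may be technical, and 3 arrays a group limit the precision.

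Collagens are built from alpha chains with long runs of glycine-led triplets that wind into a helix of chains. In the endoplasmic reticulum prolyl 4-hydroxylases (P4HA1, P4HA2) and lysyl hydroxylases (PLOD1, PLOD2, PLOD3) modify the chains, COLGALT1 adds galactose to hydroxylysine, and the chaperone SERPINH1 (HSP47) holds the folded helix. Outside the cell BMP1 cuts the C-terminal propeptide of fibrillar procollagens, lysyl oxidases (LOX, LOXL1, LOXL2) and the peroxidase PXDN form cross-links, PXDN those of type IV collagen in basement membranes. Fibroblasts make most of the fibrillar collagen of the colon, whereas epithelial cells contribute to the basement membrane beneath them.

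The targeted gene was read first. The brightest NFX1 probe set read 159, 144 and 139 on the control arrays and 124, 139 and 138 in arrays labelled NFX1-91 shRNA (log2 fold change -0.13, standard error 0.096, adjusted p = 0.40 over all probe sets; exact two-sided permutation p = 0.2, where 0.1 is the smallest that 3 against 3 allow). Of the other 2 NFX1 probe sets the dimmest passed as lower (-0.60, adjusted p = 0.0137 over probe sets) and the other did not, and which splice form each reads is not known here. Arrays correlated at 0.992 to 0.995 within groups and 0.983 to 0.985 between them. Of 10 colon epithelial markers 5 (EPCAM, CDH1, KRT8, KRT18 and KRT19) lay above the median signal of all genes and KRT20, CDH17, VIL1, CDX1 and CDX2 below it. Their summed signal, nearly all from EPCAM and the keratins KRT8, KRT18 and KRT19, was 23294 to 24164 on the control arrays and 27993 to 28159 on the NFX1-91 shRNA arrays, KRT8 and KRT18 rising and EPCAM, CDH1 and KRT20 falling, with VIL1 below 16 on all arrays. The part of this shift in the collagen results was not tested. Of 13 fibroblast markers 1 rose (ACTA2) and 1 fell (TWIST1), with sums of 5744 to 5852 and 5370.0 to 5808. S100A4, which did not pass, made up most of these sums: the other 12 markers summed to 648 to 663 on the control arrays and 702 to 821 on the NFX1-91 shRNA arrays, and LUM, PDGFRA, PDGFRB, FAP and POSTN lay below 16 on all 6 arrays. Of 7 endothelial markers KDR fell (sums of 128 to 165 and 156 to 176, VWF below 16), and of 6 blood cell markers HBB rose (123 to 132 and 128 to 170.3, CD14 and LYZ below 16).

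Of the 45 genes, 10 were higher and 3 lower in the NFX1-91 shRNA arrays (limma, Benjamini-Hochberg adjusted p under 0.05 over all genes). The largest rises were those of the transmembrane collagen COL13A1, the peroxidase PXDN and the type VI collagen chain COL6A1, and the clearest fall was that of the lysyl hydroxylase PLOD1. The 13 called members were 28.9% of the 45, against 32.5% called over all genes. By direction, 22.2% of members were higher, against 14.7% of all genes, and 6.67% lower, against 17.8%. The median log2 fold change of the members was 0.10, against 0.0036 over all genes. All arrays of 1 group lay above all arrays of the other for 15 members (33.3%), against 43.5% of all genes. Of all 45 members, 11 were separate and higher, against 20.6% of all genes, and 4 separate and lower, against 22.9%. The tilt of the background depended on the scaling: 1762 genes were higher and 2128 lower as given, 1943 and 2002 with quantile normalization, and 1955 and 1874 with median centring. The members called were 11 higher and 3 lower with quantile normalization and 13 and 2 with median centring. The share of members called was thus near the background, and the split by direction was not tested against it.

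**Figure D1:**
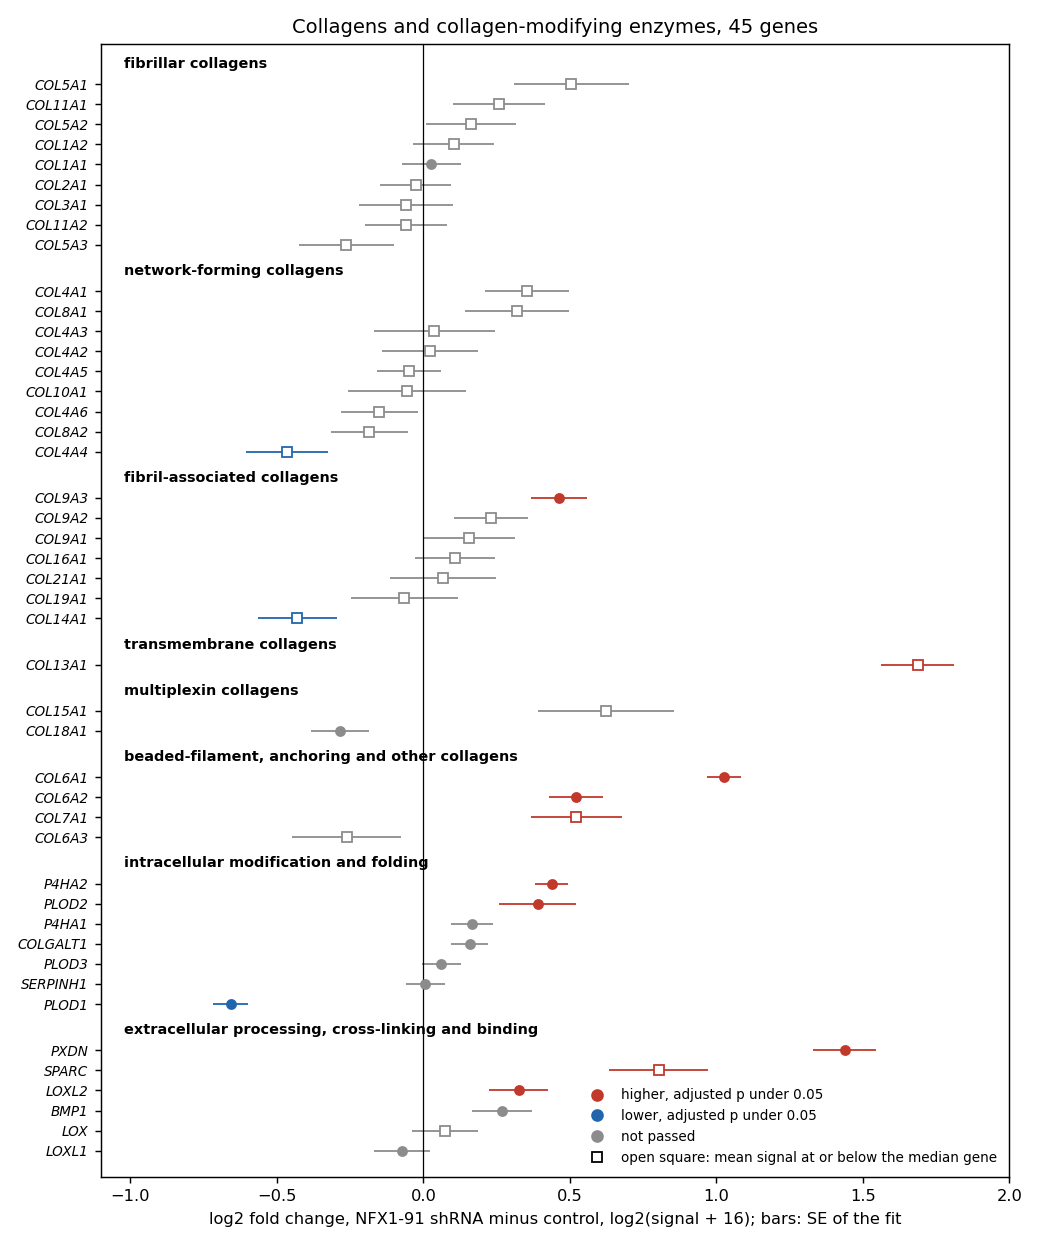
Log2 fold change (NFX1-91 shRNA minus control shRNA, 3 arrays each, on log2(signal + 16)) of all 45 members, grouped by role, with the standard error of the limma fit as bars. Red and blue mark the 10 higher and 3 lower genes at an adjusted p under 0.05, and open squares the 29 genes with a mean signal at or below that of the median gene. None of the 9 fibrillar collagens passed by the probe set used for the gene, though a second COL1A1 probe set was called higher over probe sets. All but COL1A1 lay at or below the median signal, where 12.3% of all genes passed, so 0 of 9 is near that share.

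Brighter genes were called more often, among members as among all genes. Signals were scaled to an array mean of 500, and 16 was added before taking log2, which shrinks the change of dim genes. Of the members 16 lay above the median signal of all genes (139.6) and 29 at or below it. Among the brighter 16, 7 were higher and 1 lower (43.8% and 6.25%), against 23.7% and 29.0% (52.8% in all) of the genes above the median. Their median log2 fold change was 0.22, against -0.016. Among the 29 dimmer members 3 were higher and 2 lower (10.3% and 6.90%), against 5.73% and 6.54% (12.3% in all) of the dimmer genes, with a median of 0.067 against 0.017. Of the 32 collagen chains 27 were in the dimmer class, and 4 of them read below 16 on all 6 arrays. Of the 13 enzymes and binding proteins 11 were in the brighter class. What a signal near or below 16 says about expression cannot be settled here, as no detection calls were used.

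**Figure D2:**
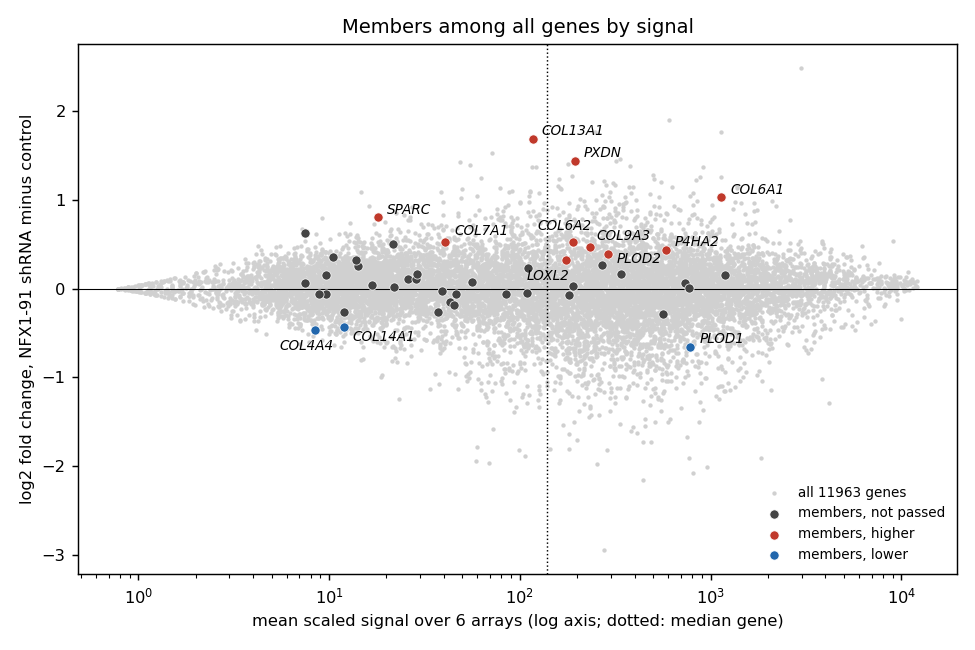
Log2 fold change (NFX1-91 shRNA minus control) against mean scaled signal over 6 arrays (log axis), with all 11963 genes in grey, members in colour and called members named. The dotted line is the median gene; COL13A1, PXDN and COL6A1 stand at the upper edge of the cloud, and the called falls COL4A4 and COL14A1 lie in its dim part.

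COL13A1 encodes a transmembrane collagen found at cell contacts and at the neuromuscular junction. Its brightest probe set read 40.8, 54.9 and 45.6 in the control arrays and 164, 197 and 200.4 in the NFX1-91 shRNA arrays. The groups were far apart, and the mean was 3.97-fold higher. The log2 fold change was 1.69 (standard error 0.125, adjusted p = 9.54e-06). The other COL13A1 probe sets differed less. One with the suffix x, a design whose probes may match other transcripts, read 37.1, 44.1 and 29.8 on the control arrays and 53.3, 53.6 and 52.3 on the NFX1-91 shRNA arrays. These groups did not overlap either, but the log2 fold change of 0.39 (standard error 0.135) did not pass (adjusted p = 0.0663 over probe sets). The remaining probe set read 44.2, 43.1 and 38.3 against 44.1, 54.8 and 40.9, with overlapping groups and a log2 fold change of 0.11 (standard error 0.132, adjusted p = 0.632 over probe sets). So 1 of 3 COL13A1 probe sets was called higher, against 12.0% of all probe sets. The intermediate probe set passed as well when dim probe sets were left out or without a variance trend, which gave 2 of 3. With the mean of the 3 probe sets COL13A1 kept its call, at a log2 fold change of 0.73. All 3 have the suffix s or x, so leaving out shared designs gave no further reading of this gene.

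PXDN (peroxidasin), which forms the sulfilimine cross-links of type IV collagen, was read by 2 probe sets, and both rose. The brighter by mean over the arrays read 107, 87.7 and 97.9 on the control arrays and 256, 301 and 319 on the NFX1-91 shRNA arrays, a 2.99-fold higher mean (log2 fold change 1.44, standard error 0.107, adjusted p = 9.68e-06). The second read 92.2, 99.97 and 102 against 260, 298 and 288 (log2 fold change 1.38, standard error 0.090, adjusted p = 2.00e-05 over probe sets). The type IV chains that PXDN acts on all lay below the median signal of all genes. COL4A5 was the brightest of them, at 111 ± 10.5 on the control arrays. COL4A1 and COL4A2, the main pair of basement membranes, had mean signals of 7.37 ± 2.94 and 21.6 ± 3.70 (SD, n = 3) on the control arrays and 13.7 ± 2.37 and 22.4 ± 6.66 on the NFX1-91 shRNA arrays. Neither passed (log2 fold change 0.35 and 0.02, adjusted p = 0.0927 and 0.944).

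**Figure D3:**
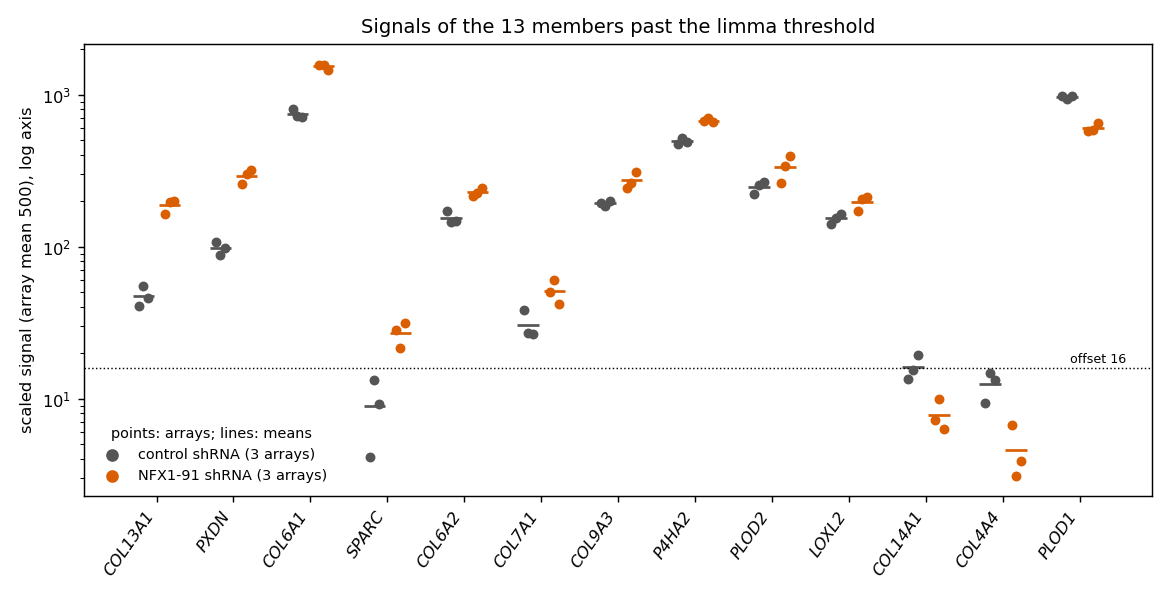
Scaled signal (log axis, array mean 500) of the 13 called members on each of the 3 control arrays (grey) and 3 NFX1-91 shRNA arrays (orange), with group means as lines and the offset of 16 dotted. For every gene shown except PLOD2 the arrays of the groups do not overlap; SPARC, COL14A1 and COL4A4 lie around the offset.

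Type VI collagen forms beaded filaments around cells from the alpha chains of COL6A1, COL6A2 and COL6A3. COL6A1 read 799, 727 and 710.4 on the control arrays and 1576, 1568 and 1456 on the NFX1-91 shRNA arrays. The groups did not overlap and the mean was 2.06-fold higher (log2 fold change 1.03, standard error 0.058, adjusted p = 1.89e-06). COL6A2 read 170.4, 145 and 147 against 215, 226 and 242, also without overlap (1.48-fold, log2 fold change 0.52, standard error 0.092, adjusted p = 0.00171). COL6A3 was dim and its arrays overlapped, with 14.8 ± 8.08 on the control arrays and 9.22 ± 2.08 on the NFX1-91 shRNA arrays (log2 fold change -0.26, standard error 0.186, adjusted p = 0.340). The called rises rested on probe sets with the suffix s, which read several transcripts. Of 8 COL6A1 probe sets 2 were called higher and 6 had a log2 fold change above 0, the second called one reading 135, 148 and 164 against 284, 297 and 272 (log2 fold change 0.86, adjusted p = 0.000189 over probe sets). With such shared designs left out, COL6A1 was read at 0.32 (adjusted p = 0.0931) and COL6A2 at 0.0092 (adjusted p = 0.969), and both calls were lost. COL6A1 and COL6A2 are next to each other on chromosome 21 in RefSeq.

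COL7A1, whose product forms the anchoring fibrils under epithelia, read 38.3, 26.8 and 26.5 on the control arrays and 50.02, 60.6 and 41.9 on the NFX1-91 shRNA arrays (log2 fold change 0.52, standard error 0.155, adjusted p = 0.0271). The groups were separate by a small gap. The call was lost without control array 2 (adjusted p = 0.0981) or 3 (0.0919) and without NFX1-91 shRNA array 1 (0.0696) or 2 (0.114). The second COL7A1 probe set pointed the other way, with overlapping groups (log2 fold change -0.26, standard error 0.319, adjusted p = 0.627 over probe sets). With the mean of both probe sets the log2 fold change was 0.13 (adjusted p = 0.690).

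Of the fibril-associated collagens, which sit on the surface of fibrils, COL9A3 rose and COL14A1 fell among 7 measured. That is 28.6% called, against 32.5% of all genes. All but COL9A3 lay at or below the median signal, where 12.3% of all genes were called. COL9A3, a type IX chain best known from cartilage, read 193, 185 and 198 on the control arrays and 243, 263 and 311 on the NFX1-91 shRNA arrays (1.42-fold, log2 fold change 0.46, standard error 0.096, adjusted p = 0.00431). Its groups did not overlap. This is its 1 probe set, with the suffix s, so no second reading bears on the call. Its partner chains COL9A1 and COL9A2 had log2 fold changes of 0.16 and 0.23 (adjusted p = 0.516 and 0.208). COL14A1 read 13.5, 15.5 and 19.4 against 7.29, 9.88 and 6.29 (log2 fold change -0.43, standard error 0.135, adjusted p = 0.0349), signals around the offset or below it. Its other 2 probe sets, dimmer still, had log2 fold changes of 0.10 and -0.02, and by the mean of the 3 the gene did not pass (-0.12, adjusted p = 0.464). The COL14A1 call was lost in 10 of 17 settings: at a threshold of 0.01, by that mean, with median centring (adjusted p = 0.0512), no offset (-1.05, adjusted p = 0.0509), a robust prior (0.0501) or the replicate number as a block (0.0614), without control array 2 (0.0760) or 3 (0.117), and without NFX1-91 shRNA array 1 (0.0845) or 3 (0.0954). Its log2 fold change ran from -1.05 to -0.12 over the processing settings.

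The 9 network-forming chains, all at or below the median signal, included 1 call (11.1%), against 12.3% of all genes at or below it. COL4A4, a chain of the type IV network of the kidney glomerulus, read 9.36, 14.7 and 13.2 on the control arrays and 6.69, 3.12 and 3.88 on the NFX1-91 shRNA arrays (log2 fold change -0.47, standard error 0.139, adjusted p = 0.0275). All of these values lie below the offset, and the log2 fold change ran from -1.49 to -0.16 over the processing settings. Without control array 2 (adjusted p = 0.0938) or 3 (0.0778), or without NFX1-91 shRNA array 2 (0.0918) or 3 (0.0710), COL4A4 did not pass. Its call was also lost with the replicate number as a block and at a threshold of 0.01. The other 8 had log2 fold changes between -0.18 (COL8A2) and 0.35 (COL4A1). The brightest of them by mean signal was COL4A5, with 111 ± 10.5 on the control arrays and 107 ± 10.3 on the NFX1-91 shRNA arrays (log2 fold change -0.05, 95% interval -0.30 to 0.20).

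None of the 9 fibrillar chains passed as genes in the limma fit (1, COL5A1, had an unadjusted p under 0.05), and their median log2 fold change was 0.03. All but COL1A1 lay at or below the median signal, where 12.3% of all genes were called, so 0 of 9 is near that share. COL1A1, the main chain of type I collagen, was the 1 fibrillar gene above the median signal. Its brightest probe set, with the suffix x, read 202, 198 and 168 on the control arrays and 215, 184 and 181 on the NFX1-91 shRNA arrays, with overlapping groups (log2 fold change 0.03, 95% interval -0.20 to 0.25, adjusted p = 0.884). A second COL1A1 probe set read 69.7, 68.5 and 57.7 against 109, 109.5 and 123. There the groups were separate and the log2 fold change of 0.68 (standard error 0.113) passed over probe sets (adjusted p = 0.00236). The other 2 were dim, at 0.50 and 0.17 (adjusted p = 0.0801 and 0.482 over probe sets), so all 4 lay above 0 and 1 was called. By the mean of the 4 probe sets COL1A1 was called higher (log2 fold change 0.34, adjusted p = 0.0409). Its partner COL1A2 read 27.0 ± 5.28 and 30.0 ± 1.91 (log2 fold change 0.10, adjusted p = 0.636), and COL3A1 47.5 ± 6.52 and 45.6 ± 11.7 (-0.06, adjusted p = 0.838). COL5A1, which starts the assembly of type I fibrils, had a log2 fold change of 0.51 (standard error 0.198, adjusted p = 0.0809). It passed without control array 1 (adjusted p = 0.0269) or NFX1-91 shRNA array 1 (0.0393).

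COL18A1 and COL15A1 encode the multiplexins of basement membranes, and fragments of their products (endostatin from COL18A1) are known to limit blood vessel growth. The brightest COL18A1 probe set read 602, 535 and 726 on the control arrays and 505, 526 and 479 on the NFX1-91 shRNA arrays. The groups did not overlap, but the log2 fold change of -0.28 (standard error 0.098) lay just outside the threshold (adjusted p = 0.0509), the nearest of all uncalled members. The second probe set read 274, 219 and 238 against 120.2, 129.8 and 147, and its log2 fold change was -0.81 (standard error 0.109, adjusted p = 0.000787 over probe sets). By the mean of both probe sets COL18A1 was called lower (-0.55, adjusted p = 0.00102), and it also passed without control array 2 (-0.38, adjusted p = 0.0154). COL15A1 read 1.45, 1.23 and 3.37 against 23.7, 12.1 and 3.05. These are dim values with 1 NFX1-91 shRNA array among the control values, and the log2 fold change of 0.62 (standard error 0.233) did not pass (adjusted p = 0.0695). Without NFX1-91 shRNA array 3 it was 0.89 (adjusted p = 0.00746).

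**Figure D4:**
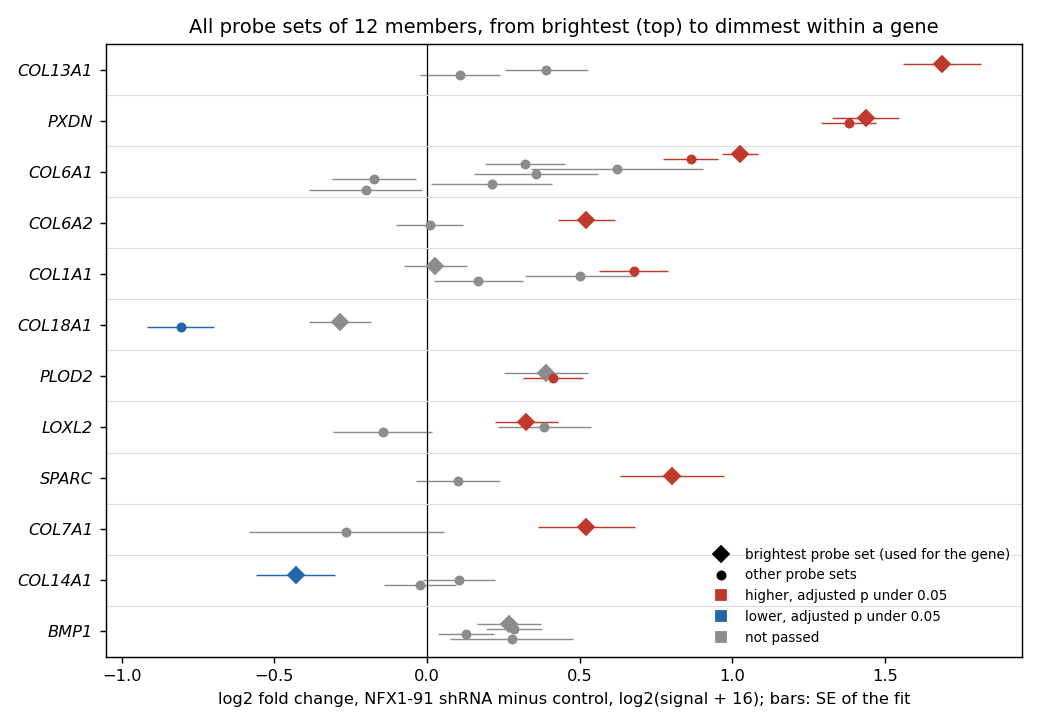
Log2 fold change (NFX1-91 shRNA minus control) of every probe set of 12 members, brightest first within a gene, with the standard error of the fit over all 22215 probe sets as bars and calls adjusted over probe sets. Both PXDN probe sets rose, whereas 1 of 3 for COL13A1, 2 of 8 for COL6A1 and 1 of 4 for COL1A1 were called.

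The lysyl hydroxylases did not move together. PLOD1 fell from 971, 935 and 978 on the control arrays to 578, 584 and 652 on the NFX1-91 shRNA arrays. No array of a group came near the other, and the mean was 1.59-fold lower in NFX1-91 shRNA cells (log2 fold change -0.66, standard error 0.059, adjusted p = 2.61e-05). PLOD2, which hydroxylates the telopeptide lysines used for cross-links, read 222, 253 and 266 against 262, 340.0 and 393, with NFX1-91 shRNA array 1 inside the control range (log2 fold change 0.39, standard error 0.132, adjusted p = 0.0473). It was the called member nearest the threshold. A second PLOD2 probe set without overlap read 127, 138 and 146 against 171, 189 and 205 (log2 fold change 0.41, standard error 0.099, adjusted p = 0.0144 over probe sets), while the first did not pass over probe sets (0.0711). As a gene PLOD2 lost its call without control array 1, 2 or 3 (adjusted p = 0.137, 0.102 and 0.0629) and without NFX1-91 shRNA array 2 (0.156) or 3 (0.161). It also lost it with an offset of 64 (0.0513), without a variance trend (0.108) and with shared designs left out (0.0502). Both PLOD2 probe sets have the suffix s, so that last setting kept the same reading and only its error and adjusted p could move. PLOD3 had 719 ± 32.2 and 753 ± 60.3 (log2 fold change 0.06, 95% interval -0.088 to 0.21, adjusted p = 0.550).

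Of the prolyl 4-hydroxylase alpha subunits, which make the hydroxyproline that steadies the helix, P4HA2 rose. It read 476, 519 and 487 on the control arrays and 669, 696 and 657 on the NFX1-91 shRNA arrays (1.37-fold, log2 fold change 0.44, standard error 0.057, adjusted p = 0.000266). P4HA1 read 302, 322 and 337 against 339, 370 and 375. Its groups just failed to overlap, and the log2 fold change of 0.17 (standard error 0.072) did not pass (adjusted p = 0.111), though it did with quantile normalization (0.22, adjusted p = 0.0216). COLGALT1 had 1129 ± 48.6 and 1262 ± 98.7 (log2 fold change 0.16, adjusted p = 0.0864), and passed without NFX1-91 shRNA array 3 (0.22, adjusted p = 0.0138). SERPINH1 had 772 ± 63.6 and 774 ± 31.6, a log2 fold change of 0.0062 with a 95% interval of -0.14 to 0.16.

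Outside the cell, LOXL2, which oxidises lysines of type IV collagen, read 142, 155 and 164 on the control arrays and 173, 205 and 213 on the NFX1-91 shRNA arrays (log2 fold change 0.32, standard error 0.101, adjusted p = 0.0333). The groups were close but separate. The LOXL2 call was lost without control array 1 (adjusted p = 0.0874) or 2 (0.0855), without NFX1-91 shRNA array 2 (0.129) or 3 (0.106), and by the mean of its 3 probe sets (0.19, adjusted p = 0.188). Its dimmer probe sets had log2 fold changes of 0.38 and -0.15 (adjusted p = 0.106 and 0.596 over probe sets). LOX had 54.3 ± 1.74 and 58.1 ± 4.35 (log2 fold change 0.07, adjusted p = 0.684), and LOXL1 185 ± 16.8 and 175 ± 12.7 (-0.07, adjusted p = 0.622). SPARC, a matricellular protein that binds fibrillar and type IV collagens, read 4.11, 13.4 and 9.22 against 28.1, 21.6 and 31.7. The groups did not overlap (log2 fold change 0.80, standard error 0.170, adjusted p = 0.00484), but the control values lie below the offset. A second, dimmer SPARC probe set read 0.10 (standard error 0.137, adjusted p = 0.669 over probe sets), and with shared designs left out the call was lost (adjusted p = 0.663). BMP1 had 242 ± 25.9 and 295 ± 31.2 (log2 fold change 0.27, standard error 0.102, adjusted p = 0.0745). Its 4 probe sets all lay above 0, but limma called 0 of them over probe sets (2 had an unadjusted p under 0.05), and the gene passed without NFX1-91 shRNA array 3 (0.35, adjusted p = 0.0292).

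The remaining 24 uncalled members, those at or below the median signal, had log2 fold changes from -0.26 to 0.62, 14 of them above 0. For 1 of these 24 (4.17%) the arrays of the groups did not overlap (COL4A1), against 43.5% of all genes. The 24 were picked as uncalled and dim, so a low share was to be had from the choice and nothing was concluded from it. Over the 51 member probe sets that were not used for a gene, 5 were called. A further probe set each of PXDN, COL6A1, COL1A1 and PLOD2 was higher, and that of COL18A1 lower. Of all probe sets 25.7% were called, but that share is no matched background. The 51 leave out the brightest probe set of each gene, whereas the 25.7% include it, and calls were more frequent at higher signal. No conclusion was drawn from the comparison. Of the 13 called members 9 had several probe sets and 4 (COL4A4, COL9A3, P4HA2 and PLOD1) had 1.

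The start regions of the members with the smallest adjusted p and an entry in the table (COL6A1 had none) are shown, as these genes moved furthest relative to their error and in both directions. They are RefSeq windows on GRCh38.p14, from 250 bases before to 50 bases after the annotated start, written 5′ to 3′ on the gene's strand: COL13A1 at chr10:69801656-69801955 (plus), PXDN at chr2:1744466-1744765 (minus), COL6A2 at chr21:46097862-46098161 (plus), P4HA2 at chr5:132227042-132227341 (minus) and PLOD1 at chr1:11934467-11934766 (plus). Capitals mark matches on either strand to GGGCGG (the GC box of SP1 factors), TATAAA (bound by TBP), TGANTCA (AP-1), ACGTG (the core of hypoxia response elements and of many E-boxes) or CACGTG (the E-box of MYC and USF, which contains ACGTG).
COL13A1: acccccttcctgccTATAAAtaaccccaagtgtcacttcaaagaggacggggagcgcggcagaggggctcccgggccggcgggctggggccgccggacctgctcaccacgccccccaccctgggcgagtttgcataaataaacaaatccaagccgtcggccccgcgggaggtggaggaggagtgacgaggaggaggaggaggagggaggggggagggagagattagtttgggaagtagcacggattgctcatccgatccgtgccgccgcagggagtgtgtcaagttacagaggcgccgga
PXDN: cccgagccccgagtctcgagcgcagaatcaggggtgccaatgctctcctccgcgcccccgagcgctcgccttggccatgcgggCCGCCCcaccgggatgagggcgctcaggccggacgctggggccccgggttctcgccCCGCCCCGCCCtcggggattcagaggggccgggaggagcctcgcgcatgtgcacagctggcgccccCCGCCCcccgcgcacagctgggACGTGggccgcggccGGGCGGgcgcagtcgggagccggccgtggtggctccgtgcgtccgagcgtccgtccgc
COL6A2: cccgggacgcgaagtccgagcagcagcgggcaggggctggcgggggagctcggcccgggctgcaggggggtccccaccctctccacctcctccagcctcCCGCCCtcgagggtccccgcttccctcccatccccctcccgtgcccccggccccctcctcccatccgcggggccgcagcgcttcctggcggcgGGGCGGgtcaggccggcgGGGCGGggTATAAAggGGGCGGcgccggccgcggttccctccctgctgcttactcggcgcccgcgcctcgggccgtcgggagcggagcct
P4HA2: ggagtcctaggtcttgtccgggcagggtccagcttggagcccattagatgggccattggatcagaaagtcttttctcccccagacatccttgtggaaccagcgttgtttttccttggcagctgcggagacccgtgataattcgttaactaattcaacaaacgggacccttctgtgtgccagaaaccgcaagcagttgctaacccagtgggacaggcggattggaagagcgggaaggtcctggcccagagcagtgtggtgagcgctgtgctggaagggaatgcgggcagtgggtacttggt
PLOD1: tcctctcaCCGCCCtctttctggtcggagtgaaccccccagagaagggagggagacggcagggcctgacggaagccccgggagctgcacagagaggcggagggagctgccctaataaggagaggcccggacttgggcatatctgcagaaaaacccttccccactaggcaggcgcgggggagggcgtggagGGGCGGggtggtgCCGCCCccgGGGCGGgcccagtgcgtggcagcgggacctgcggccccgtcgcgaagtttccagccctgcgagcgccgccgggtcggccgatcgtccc
The risers did not share a motif that PLOD1 lacked. PXDN held 5 GC boxes and 1 ACGTG, COL6A2 4 GC boxes and a TATAAA at -32 from the start, PLOD1 4 GC boxes, COL13A1 a TATAAA at -236, and P4HA2 no match. The GC content was 78.3% for PXDN, 79.3% for COL6A2, 71% for PLOD1, 64% for COL13A1 and 55.7% for P4HA2, against a median of 58.7% over 35116 RefSeq windows. Of the 45 members 34 had an entry, with 48 windows in all. Among these windows GGGCGG occurred in 54.2%, against 45.0% of all windows, TATAAA in 14.6% against 11.5%, ACGTG in 27.1% against 21.4%, TGANTCA in 2.08% against 7.71%, and CACGTG in 0 of 48 against 7.26%. A match is a string of letters and was not tested as a binding site.

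Of 6 pairs of members that are next to each other among protein-coding genes of RefSeq, both genes were called in 1, COL6A1 with COL6A2. COL4A1 and COL4A2 are transcribed in opposite directions, and their start windows share 226 bases; neither was called. COL4A4 was called lower and its neighbour COL4A3 was not called (log2 fold change 0.04, adjusted p = 0.924). In COL3A1 with COL5A2, COL9A1 with COL19A1 and COL4A5 with COL4A6 neither gene was called.

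Other genes that handle collagen were read from lists of non-members, with differences given as log2 fold changes and 32.5% of all genes called as the background. Of 16 measured genes of collagen folding, hydroxylation and secretion 3 rose and 1 fell. MIA3 (TANGO1), which loads procollagen into transport carriers, rose from 147 ± 8.16 to 294 ± 16.6 (log2 fold change 0.92, standard error 0.082), whereas SEC23A, a coat protein of those carriers, fell by 0.16. The prolyl 3-hydroxylases P3H1 and P3H2 rose by 0.39 and 0.40. P4HB, the partner subunit of P4HA1 and P4HA2, had a log2 fold change of 0.085 (adjusted p = 0.178). Among 10 measured genes of procollagen cleavage and cross-linking, PCOLCE2, an enhancer of BMP1, rose from 205 ± 24.5 to 328 ± 13.9 (0.64, standard error 0.091), and 9 did not pass.

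Of 19 genes of collagen breakdown 5 rose and 0 fell. The metalloproteinase inhibitor TIMP2 rose from 134 ± 2.78 to 269 ± 26.1 (log2 fold change 0.93, standard error 0.091). The collagen uptake receptor MRC2 rose by 0.62, the lysosomal proteases CTSB and CTSL by 0.34 and 0.16, and PEPD, which splits dipeptides that end in proline, by 0.26. Of 10 matrix metalloproteinases on the list limma called 0, and 0 had an unadjusted p under 0.05. Most were dim: MMP1, MMP3, MMP10 and MMP13 lay below 16 on all 6 arrays and MMP8 on 5. Only MMP9 and MMP15 lay above the median signal of all genes. Of 10 measured collagen receptors 4 rose and 1 fell: the integrin subunits ITGA2 and ITGB1 by 0.59 and 0.13, MRC2 as above and CD44 by 0.20, while the proteoglycan SDC1 fell by 0.59, from a mean of 991 to 654. The list medians were 0.060 for folding and secretion, -0.027 for cleavage, 0.041 for breakdown and 0.14 for receptors.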

How the data were processed

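Biotin-labelled RNA was hybridised to Affymetrix arrays, per the labels' protocols. The authors deposited linear intensity values for 22215 probe sets, and each array sums to 1, which makes every deposited intensity a fraction of its array's total; for the probe summary the sources used here give no method. Each array was scaled to a mean of 500 and log2(signal + 16) was taken. Between 24.1% and 25.9% of an array's values lay below 16, and 397 to 451 share 1 low value, with at most 2 values of the array below it. The platform annotation gave 19064 probe sets 1 gene, 1043 several and 2108 none; 19052 were matched by identifier to RefSeq (GRCh38.p14) and 0 symbols changed. Probe sets of several genes were left out of the gene comparison.

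The comparison used limma 3.58.1 under R 4.3.3 (an unpaired two-sided fit with lmFit, then eBayes allowing the prior variance to follow the mean) over 11963 genes and, for single probe sets, over all probe sets, with Benjamini-Hochberg adjustment and a threshold of 0.05. Folds are ratios of mean signals, log2 fold changes are from the fit, and 95% intervals use its moderated error. The steps were tested on simulated data. Figures used matplotlib 3.10.9 in Python 3.11.15. The members and lists were chosen with earlier results of these data known. Named were all called members with every array, the brighter uncalled ones, called genes of the non-member lists, NFX1, and further probe sets of called members; the other probe sets of COL1A1, COL18A1 and BMP1, and uncalled dim genes given as partners of called ones, were added after their values were seen. Alternatives changed the scaling (quantile, median centring), the offset (1 or 64), the prior (robust, or without the trend), the reading of a gene (averaging its probe sets, or passing over _s_at and _x_at designs where it has another), the genes kept (signal at or above percentile 40), the threshold (0.01) and the arrays (each left out in turn, or the replicate number as a block). An alternative with no offset was added after seeing the data.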

Additional observations from a re-analysis of the deposited data

How the results depend on the processing

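Over 18 alternatives the 13 called members kept call and direction in 190 of 230 values and lost the call in 40, with 0 reversed; 22 values of uncalled members passed. COL13A1, PXDN, COL9A3, P4HA2 and PLOD1 kept theirs in all 18, but COL9A3, P4HA2 and PLOD1 have 1 probe set each, so averaging probe sets could not change their values, and leaving out shared designs could not change those of COL13A1, COL9A3, P4HA2, PLOD1 or PXDN. COL6A1, COL6A2 and SPARC lost it only with shared probe sets left out, which took the members called higher from 10 to 6. PLOD2 lost its call there too, but without a change of probe set, as both of its probe sets have the suffix s. Its log2 fold change stayed the same and its adjusted p moved just past the threshold as other genes of the fit changed. Over the settings that keep all arrays the counts ran from 6 to 13 higher (13 with median centring, where BMP1, COLGALT1 and COL15A1 passed), from 1 to 4 lower (4 with an offset of 1, where COL18A1 passed) and from 8 to 16 in the non-member lists (16 with quantile normalization). Members called lower went from 3 to 1 with the replicate block (COL4A4 and COL14A1 lost, adjusted p = 0.0582 and 0.0614, no other member call changed) and at a threshold of 0.01, which left 8 of 14 calls in the non-member lists. COL13A1 probe sets called went from 1 to 2 with dim probe sets left out or without a variance trend. Without 1 array at a time, 2915 to 3920 genes were called in place of 3890, 7 to 11 members higher, 1 to 3 lower (1 without control array 3 or NFX1-91 shRNA array 3) and 9 to 13 in the lists (9 without NFX1-91 shRNA array 2). The replicate block gave 3598 genes; the numbers pair nothing by the check made, since same-numbered arrays deviated together at r = -0.028, 0.081 and -0.021. NFX1's brightest probe set stayed uncalled, at -0.13 with the block.

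Uncalled members changed sign as follows. With quantile normalization COL4A2 read -0.0082 and with median centring COL2A1 0.0027. With the mean of probe sets COL3A1 read 0.18, COL4A2 -0.071, COL4A3 -0.050, COL8A2 0.065 and LOX -0.028. With shared probe sets left out COL5A3 read 0.11. Without 1 array at a time the ranges were -0.060 to 0.054 for SERPINH1, -0.28 to 0.066 for COL10A1, -0.19 to 0.055 for COL11A2, -0.22 to 0.075 for COL19A1, -0.050 to 0.072 for COL1A1, -0.0011 to 0.17 for COL1A2, -0.10 to 0.21 for COL21A1, -0.077 to 0.028 for COL2A1, -0.20 to 0.077 for COL3A1, -0.078 to 0.17 for COL4A2, -0.20 to 0.20 for COL4A3 and -0.10 to 0.021 for COL4A5. The cause of these changes was not tested. Signals near the offset limit what can be said of most collagen chains.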
